A study of Sorghum bicolor with 15 samples.

Results

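The genes described here are 150 sorghum root genes whose read counts rose between 28 and 35 d in the variety SRN39 and changed little over the same week in the variety Shanqui Red (SQR). They were chosen from measured values. Each count was scaled to a library total of 1000000 (CPM), and L = log2(CPM + 1) was taken with a pseudocount of 1. A gene qualified where its lowest SRN39 library at 35 d lay above its highest at 28 d, its mean L rose by at least 1 in SRN39, and its mean L in SQR changed by no more than 0.25 in either direction. Of 34129 genes in the table, 408 qualified, and the 150 with the largest SRN39 rise are the members.

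Roots of SQR and SRN39 were profiled with 3′ mRNA-Seq libraries, which sample the 3′ end of each transcript, so that CPM carries no correction for transcript length. SQR is susceptible to the parasitic weed Striga hermonthica and SRN39 is resistant. SRN39 carries a deletion at the LOW GERMINATION STIMULANT 1 (LGS1) locus, and its roots exude mainly orobanchol, whereas those of SQR exude mainly 5-deoxystrigol. There were 4 biological replicates of SQR at 28 d, 3 of SQR at 35 d, and 4 of SRN39 at each age. A column of counts bearing the name of another SQR replicate at 35 d has no matching sample description and was not used here. All plants grew in gamma-sterilised field soil plugs set in sand, in a greenhouse, and received a nutrient solution low in phosphate. The whole washed root system was frozen, so each library mixes every root cell type and root order, and fewer cells of a type cannot be told apart from less RNA per cell. The varieties differ at many loci besides LGS1, and their part in any comparison cannot be told apart from that of LGS1.

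Strigolactones are carotenoid-derived hormones that roots make and exude when phosphate is scarce. They recruit arbuscular mycorrhizal fungi, shape shoot branching and root architecture, and trigger the germination of Striga seeds. NODULATION SIGNALING PATHWAY 1 (NSP1), a GRAS-family transcription factor, is known in legumes and rice to promote the expression of strigolactone biosynthesis genes. Abscisic acid (ABA), the hormone of water deficit, is sensed in Arabidopsis by PYR1-like receptors, which inhibit type 2C protein phosphatases when the hormone is bound. Genes encoding such phosphatases, HAI3 among them, are themselves induced by ABA. Matches to NSP1 and to HAI3 are members. So is a gene whose rice match is a pathogenesis-related protein of the Bet v I family and whose Arabidopsis match is PYR1-like 6. Whether that gene senses ABA was not tested. Of the 150, 6 carry a name or description in the sources used here. Those sources describe only part of the genes, so the others are given by their identifiers only.

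Total counts per library ran from 6369710 to 17304929, and 6041 genes had no count in any of the 15 libraries. LGS1 itself (Sobic.005G213600), which checks the varietal labels, was read at 33.1 to 84.2 CPM in SQR at 28 d, 18.1 to 44.2 in SQR at 35 d, 0.408 to 1.56 in SRN39 at 28 d and 0.925 to 1.93 in SRN39 at 35 d. The labelled tissue could not be checked against defining markers. The annotated list at hand is only part of the study's list. Of its 413 genes, 0 were described as a leaf marker and 0 as a root marker. Scaling mattered for the ages. Library totals raised the median age difference of all 18473 tested genes by 0.27 in SRN39 and 0.22 in SQR on the log2 scale, compared with TMM factors, which centre the bulk of genes. An SQR change near 0 in CPM is therefore below that of the median gene, and the values below state their scale.

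The rule found 1606 genes that met the SRN39 criteria alone. Of these, 1121 (69.8%) rose by more than 0.25 in SQR as well, 77 fell by more than 0.25 there, and 408 (25.4%) lay between. The median SQR change of the 1606 genes was 0.45 in L, with quartiles of 0.19 and 0.70, so the members were drawn from the lower side of a continuous spread of SQR changes. Just inside the cut by size, Sobic.009G229000 rose by 1.34 and Sobic.010G162700 by 1.33 in SRN39. Just outside it stood Sobic.006G019600 (1.33) and Sobic.008G188000 (1.33). Just outside the SQR limits stood Sobic.001G273500 (0.25) and Sobic.007G169900 (0.25) on the rising side and Sobic.001G331301 (-0.26) and Sobic.005G110460 (-0.26) on the falling side. The SRN39 libraries of Sobic.009G093800 and Sobic.002G360301 overlapped between ages and kept those genes out.

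Within the 150, the mean SRN39 rise in L ran from 1.33 to 2.87 with a median of 1.56, and 13 members rose by 2 or more. The smallest space between the SRN39 ages, from the highest 28-d library to the lowest 35-d library, was 0.071 in L, and the median was 0.90. The SQR change ran from -0.25 to 0.25 with a median of 0.06. These values chose the members and describe them only. The median of the members' mean CPM was 7.01 in SQR at 28 d, 7.17 in SQR at 35 d, 5.22 in SRN39 at 28 d and 20.3 in SRN39 at 35 d. Together the members took 0.363 to 0.507% of all counts in the SQR libraries, 0.298 to 0.398% in SRN39 at 28 d and 0.987 to 1.29% in SRN39 at 35 d.

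**Figure D1:**
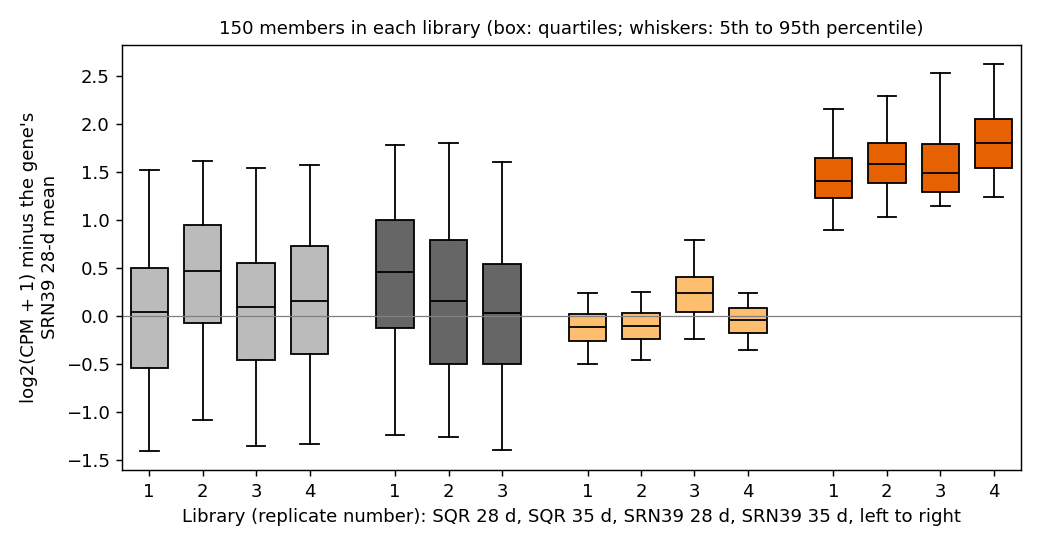
Level of the 150 members in each of the 15 libraries, as log2(CPM + 1) minus each gene's mean over the SRN39 libraries at 28 d; boxes show the quartiles and the median, and whiskers the 5th to 95th percentile of genes. The library medians lie at 0.03 to 0.47 in SQR, at -0.12 to 0.24 in SRN39 at 28 d and at 1.41 to 1.81 in SRN39 at 35 d, and the SQR boxes are the widest because the members differ in how their SQR level compares with SRN39.

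The rule fixed the changes with age and set no limit on the level in SQR, but it did not leave that level free. Genes with few SQR reads can change little in L and so pass its SQR part more easily. Under 1 CPM in every SQR library were 22 members, 15 of them in the first class below. The 28-d classes also use SRN39 libraries on which the rule selected, so their shares are not independent of it. At 28 d the members split on the SQR level in either direction. For 22 members (14.7%) every SQR library, at either age, lay below the lowest SRN39 library at 28 d, against 6.2% of all tested genes. For 25 (16.7%) every SQR library lay above the highest SRN39 library at 28 d, against 8.75% of all tested genes. For the remaining 103 the SQR and the SRN39 28-d libraries overlapped. At 35 d every SQR library lay below every SRN39 library in 111 members, against 12.2% of all tested genes, a separation that follows in large part from the required SRN39 rise with little change in SQR. In 37 they overlapped, and in 2 every SQR library was still above, against 10.4% of all tested genes. The mean SQR level lay below the SRN39 28-d mean in 57 members, between the SRN39 means of the ages in 87, and above the 35-d mean in 6.

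**Figure D2:**
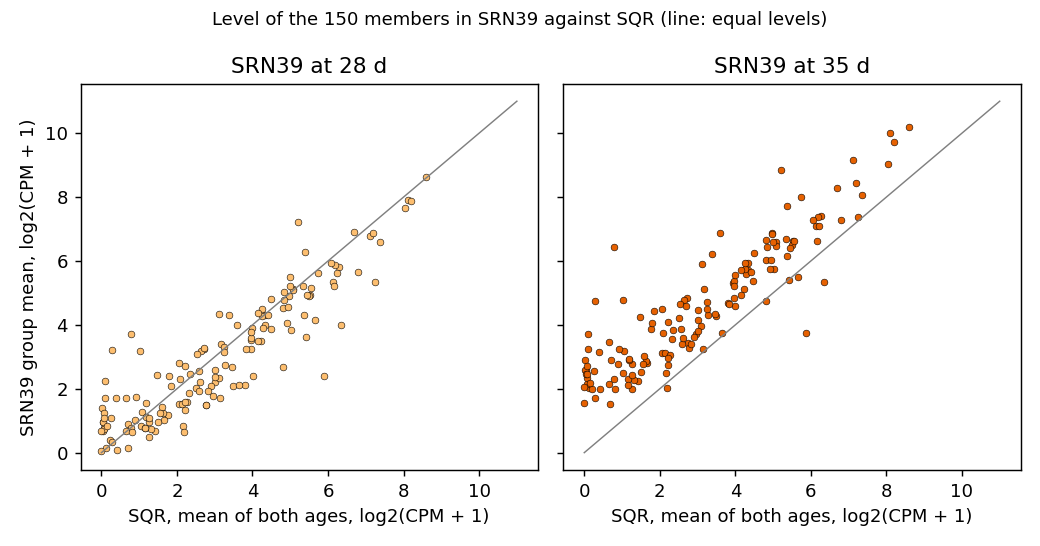
Mean log2(CPM + 1) of each of the 150 members in SRN39 at 28 d (left) and at 35 d (right) against its mean in SQR over both ages; the line marks equal levels. At 28 d the points scatter to either side of the line, and at 35 d most lie above it, with 6 members still below.

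The members already higher in SRN39 at 28 d were mostly little read in SQR. Of these 22 members, 15 stayed under 1 CPM in every SQR library. The medians of their mean CPM were 0.153 in SQR at 28 d, 0.143 in SQR at 35 d, 2.33 in SRN39 at 28 d and 8.5 in SRN39 at 35 d. Across all 150, 22 members (14.7%) stayed under 1 CPM in every SQR library, against 2.53% of tested genes. A gene with almost no reads in SQR meets the SQR part of the rule whatever it does with age, so the lack of an SQR change says little for these members. Reads of either variety were mapped to the genome of another, BTx623, and the part of sequence differences in these low SQR counts was not tested.

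Among the members already higher in SRN39 at 28 d is Sobic.001G400900. Its rice match is a pathogenesis-related protein of the Bet v I family, and its best Arabidopsis match is PYR1-like 6, of the ABA receptor family. Its SQR libraries were at 1.01, 0.915, 0.462 and 0.471 CPM at 28 d and at 0.682, 1.06 and 0.544 CPM at 35 d. In SRN39 it was at 9.09, 13.3, 17.9 and 10.1 CPM at 28 d and at 95.5, 95.8, 113 and 53.9 CPM at 35 d. No SQR library came near any SRN39 library, and replicate 4 was the lowest of the 35-d SRN39 libraries. Averaged over the ages its level was higher in SRN39 by a log2 fold change of 5.56, in 8 of 8 SRN39 libraries. The edgeR quasi-likelihood test gave a standard error of 0.26 (Benjamini-Hochberg adjusted p = 2.36e-11). That average includes the SRN39 rise by which the gene was ranked, so its p is not independent of the rule. The gene also passed the filter of the fit, over 1 CPM in 3 or more libraries, only through SRN39. Its direction was thus in effect fixed beforehand, and the gene is only described by these values. It sits in a run of genes with the same rice description, Sobic.001G400700 to Sobic.001G401300. All 7 genes of the run were among those the study had listed for differences in these samples, and reads shared between such neighbours could not be examined from the counts.

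Among its neighbours the varieties differed in either direction. Sobic.001G401000 averaged 17.6 and 12.4 CPM in SQR at 28 and 35 d and 578.2 and 1510 CPM in SRN39, the same direction as Sobic.001G400900. Sobic.001G401300 averaged 1363 and 3433 CPM in SQR and 289.6 and 1681 CPM in SRN39, and so was the lower in SRN39. Of the 7 genes 5 were called higher at 35 d in SRN39, a call made for 15.7% of all tested genes, and 0 of the 7 were called in SQR, where 1.07% of all tested genes were called higher and 1.53% lower, so a count of 0 sets these genes apart from no others. The SQR age differences of Sobic.001G401100, Sobic.001G401200 and Sobic.001G401300 were 1.45, 1.39 and 1.18 (log2, edgeR), with adjusted p of 0.105, 0.0565 and 0.0791. The genotypes' age differences differed beyond the threshold for 2 of the 7, Sobic.001G400900 by the rule's own choice and Sobic.001G401000 by 1.86 (standard error 0.39, adjusted p = 0.0108).

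The NSP1 match among the members is Sobic.001G341400, a GRAS-family gene. It was read at 5.36, 12.6, 6.76 and 5.81 CPM in SQR at 28 d and at 13.6, 6.29 and 5.83 CPM in SQR at 35 d. In SRN39 it was read at 16.6, 21.5, 22.8 and 16.8 CPM at 28 d and at 51, 76.9, 44.3 and 71.3 CPM at 35 d. All SQR libraries were below all SRN39 libraries, with replicate 2 at 28 d and replicate 1 at 35 d the highest in SQR. The average genotype difference was 2.13 (log2, standard error 0.21, edgeR adjusted p = 3.69e-07), in 8 of 8 SRN39 libraries. It combines 1.43 at 28 d with 2.83 at 35 d, so it includes the selected rise, and its p is not independent of the rule. A further gene with an NSP1 match, Sobic.002G372100, rose by 0.74 in L in SRN39 and so did not qualify. Its average genotype difference was 0.97 (standard error 0.18, edgeR adjusted p = 0.00048).

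In 2 members no read fell on the gene in any of the 7 SQR libraries. Sobic.004G052500 had 28 counts over the SRN39 libraries at 28 d and 147 at 35 d, with a mean of 3.22 ± 0.881 CPM at 35 d (SD, n = 4). A count of 0 over the SQR libraries allows up to 3 counts, or 0.0377 CPM. The SRN39 mean at 35 d was 85.4 times that limit, which covers counting error in SQR only and not the spread in SRN39. Sobic.001G535100 had 2 counts in SRN39 at 28 d and 97 at 35 d, a mean of 2.08 ± 1.01 CPM (SD, n = 4), 55.3 times the same limit. Sobic.001G053500 was close to these, with at most 2 counts in any SQR library, against 10.6 to 15 CPM in SRN39 at 35 d. The rule selected on the SRN39 values, so these ratios only describe the members. The part of sequence differences from BTx623 was not tested here either.

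The 25 members that were lower in SRN39 at 28 d rose toward, and in some cases past, the SQR level. The medians of their mean CPM were 10.5 in SQR at 28 d, 12.8 in SQR at 35 d, 4.2 in SRN39 at 28 d and 19.1 in SRN39 at 35 d. By 35 d, 8 of them were above every SQR library, 15 overlapped SQR and 2 remained below every SQR library.

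Sobic.001G513300, whose rice match is a protein-methionine-S-oxide reductase, belongs here. Enzymes of this kind repair oxidised methionine residues in proteins. It was at 8.04, 12, 9.94 and 8.16 CPM in SQR at 28 d and 13, 11.8 and 8.63 CPM in SQR at 35 d. In SRN39 it was at 2.73, 2.82, 4.01 and 3.51 CPM at 28 d and at 17.9, 12.1, 23.1 and 23.4 CPM at 35 d. Every SRN39 library at 28 d was below all of SQR, and at 35 d only the lowest of the SRN39 libraries fell within the SQR range. The average genotype difference of -0.33 (log2, standard error 0.16) did not pass the test (edgeR adjusted p = 0.101).

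Sobic.001G417600 matches the Arabidopsis ACTIN DEPOLYMERIZING FACTOR 4, which severs actin filaments. Its SQR libraries were at 5.59, 7.24, 5.95 and 9.26 CPM at 28 d and at 6.31, 6.88 and 7.07 CPM at 35 d. Its SRN39 libraries were at 2.27, 2.03, 2.44 and 3.1 CPM at 28 d and at 11.1, 10.2, 10.5 and 17.4 CPM at 35 d. The SQR libraries thus lay between the SRN39 ages without overlap, and replicate 4 stood above the other SRN39 libraries at 35 d. The average genotype difference was -0.28 (log2, standard error 0.16, edgeR adjusted p = 0.186).

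The 2 members that stayed below SQR at both ages were Sobic.003G025000 and Sobic.002G368901. Sobic.003G025000 was at 53.9, 55.2, 64.7 and 60.1 CPM in SQR at 28 d, at 53.6, 61.8 and 57.3 CPM in SQR at 35 d, at 2.54, 4.41, 7.14 and 4 CPM in SRN39 at 28 d and at 13.3, 14, 10.5 and 12.6 CPM in SRN39 at 35 d. Its rise left the highest SRN39 library far below the lowest of SQR. The average genotype difference was -2.91 (log2, standard error 0.15, edgeR adjusted p = 1.25e-10), lower in 8 of 8 SRN39 libraries. Sobic.002G368901 averaged 80.2 ± 9.53 and 81 ± 5.71 CPM in SQR at 28 and 35 d (SD, n = 4 and 3) whereas SRN39 gave 16 ± 7.68 and 39.3 ± 3.87 CPM (SD, n = 4 each), an average difference of -1.66 (log2, standard error 0.16, edgeR adjusted p = 2.89e-07).

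Most members, 103 of 150, overlapped SQR at 28 d. At 35 d every SQR library was below every SRN39 library in 81 of these, where the rule again favours separation (12.2% over all tested genes), and 22 still overlapped. Sobic.004G084900 had the largest rise of all members. It was at 11.5, 11.7, 13.6 and 8.48 CPM in SQR at 28 d and at 14.8, 12.8 and 7 CPM in SQR at 35 d, and at 19.3, 9.35, 16.3 and 17.3 CPM in SRN39 at 28 d and 88.2, 122, 110 and 156 CPM in SRN39 at 35 d. The 28-d SRN39 libraries and SQR overlapped, and the 35-d SRN39 libraries were all far above them. The ratio of the SRN39 means was 7.66, and the average genotype difference was 1.96 (log2, standard error 0.18, edgeR adjusted p = 1.44e-07). The difference was 0.51 at 28 d and 3.40 at 35 d (log2, edgeR). The average thus rests largely on the SRN39 rise by which the gene was ranked, and its p is not independent of the rule.

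The annotated members that overlapped SQR at 28 d were Sobic.001G176300 and Sobic.003G354000. Sobic.001G176300 matches a cytochrome P450 of the CYP71 family, a large plant family of oxidising enzymes of specialised metabolism. It was at 1.9, 4.91, 1.85 and 3.92 CPM in SQR at 28 d, at 4.95, 3.29 and 2.41 CPM in SQR at 35 d, at 4.82, 5.91, 7.83 and 5.96 CPM in SRN39 at 28 d and at 15.6, 21, 18.2 and 36.1 CPM in SRN39 at 35 d. Only the lowest SRN39 library at 28 d fell within the SQR range, and replicate 4 was the highest at 35 d. The average genotype difference was 1.87 (log2, standard error 0.22, edgeR adjusted p = 4.31e-06). It combines 1.07 at 28 d with 2.68 at 35 d, so it includes the rise the rule selected on, and its p is not independent of the rule.

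Sobic.003G354000, the HAI3 match, encodes a type 2C protein phosphatase of the ABA pathway. It was at 5.59, 6.41, 8.09 and 3.92 CPM in SQR at 28 d, at 6.39, 6.2 and 6.3 CPM in SQR at 35 d, at 2, 2.65, 4.99 and 2.28 CPM in SRN39 at 28 d and at 9.67, 11, 7.63 and 10.6 CPM in SRN39 at 35 d. At 28 d the SRN39 and SQR libraries overlapped. At 35 d every SRN39 library lay above the SQR libraries of that age. The SQR library at 8.09 CPM at 28 d was the only one of SQR within the SRN39 range at 35 d. The average genotype difference of the gene was -0.18 (log2, standard error 0.19, edgeR adjusted p = 0.494). A further HAI3 match, Sobic.002G172000, also rose in SRN39 between the ages, by 1.91 (log2, standard error 0.33, edgeR), but its mean L in SQR changed by -0.56, outside the limit of the rule.

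**Figure D3:**
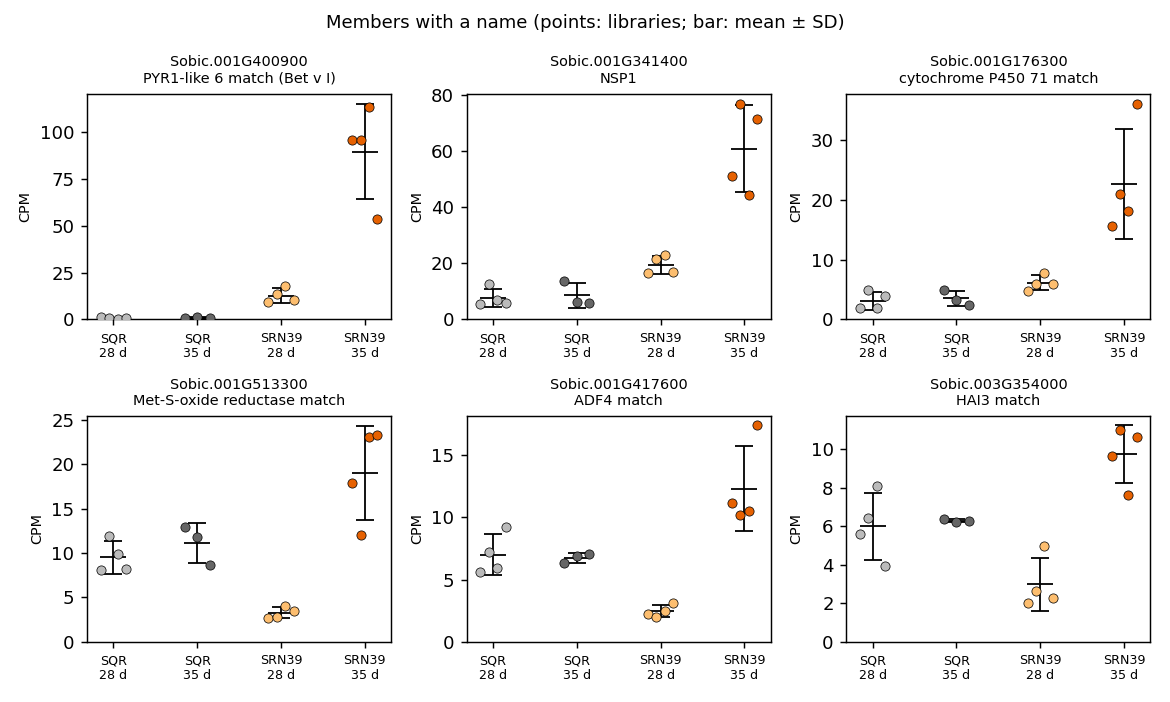
CPM of the 6 members with a name or description in each library of the 4 groups; points are libraries and bars the mean ± SD, and every axis starts at 0. The SRN39 libraries at 35 d are the highest group in each panel, while the SRN39 libraries at 28 d lie above SQR for Sobic.001G400900 and Sobic.001G341400 and below it for Sobic.001G513300 and Sobic.001G417600.

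The members with the highest mean CPM included some read at similar levels in the varieties at 28 d. Sobic.006G170600 averaged 393 ± 125 and 404 ± 108 CPM in SQR at 28 and 35 d (SD, n = 4 and 3), whereas SRN39 gave 406 ± 99.2 and 1172 ± 126 CPM (SD, n = 4 each). Sobic.006G150100 averaged 282 ± 53.7 and 294 ± 142 CPM in SQR and 244 ± 61 and 1055 ± 307 CPM in SRN39, with the same numbers of libraries. Of the 5 members with the highest mean CPM, 5 overlapped SQR at 28 d and 4 lay above every SQR library at 35 d. The exception was Sobic.004G351200, whose lowest SRN39 library at 35 d, at 429.6 CPM, was below replicate 1 of SQR at 35 d, at 465.6 CPM.

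The difference between genotypes averaged over the ages is a contrast that the rule did not set directly. In the edgeR fit 149 members passed the filter on low counts, more than 1 CPM in at least 3 libraries. Of these, 82 (55.0%) were called higher in SRN39, against 16.7% of all tested genes, and 11 (7.38%) were called lower, against 20.3%. The other 56 did not pass in either direction. The members' median difference was 0.68 (log2), and that of all tested genes was -0.06. The direction of these counts is not independent of the rule: a gene that is equal in the varieties at 28 d and flat in SQR has an average difference of 0.5 times its SRN39 rise, and the median of that quantity over the members was 0.80. Members under 1 CPM in every SQR library could pass the filter only through SRN39, so that their direction was fixed beforehand, and 20 of these 21 were called higher. In the 128 others the counts were 62 higher and 11 lower, with a median of 0.52. These 128 still include Sobic.001G400900, which exceeded 1 CPM in too few SQR libraries to pass the filter without SRN39. The counts of 62 and 11 are therefore not free of that limit.

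By age, and as a description, 29 members were called higher in SRN39 at 28 d (background 8.65%) and 27 lower (background 8.74%; 17 of the members at an adjusted p under 0.01), with a median log2 difference of -0.21. At 35 d 121 were called higher (background 16.3%) and 2 lower (background 19.4%), with a median of 1.45. All 29 that were higher at 28 d were higher at 35 d as well, which the required rise favours, compared with 1117 (69.9%) of the 1598 tested genes called higher at 28 d. Of the 27 that were lower at 28 d, 11 were called higher at 35 d, 14 were not called, and 2 were called lower again. A further 81 members were not called at 28 d and were called higher at 35 d.

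How flat the members were in SQR can be read from the fit, again as a description. In SRN39 149 of 149 were called higher at 35 d (background 15.7%), with a median log2 difference of 1.59. In SQR 0 were called higher (background 1.07%) and 0 lower (background 1.53%) by edgeR, with a median of -0.09 under TMM, below the 0.06 of all tested genes. The standard error of the SQR difference had a median of 0.32, so modest changes would not have been seen: in 28 members the SQR difference plus 2 standard errors reached a rise of 1. The difference between the genotypes' age changes was called for 97 of the 149 (background 3.68%) as more positive in SRN39 and for 0 as more negative (background 3.66%). For the other 52 a difference between the varieties in the change with age was not shown by that test.

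**Figure D4:**
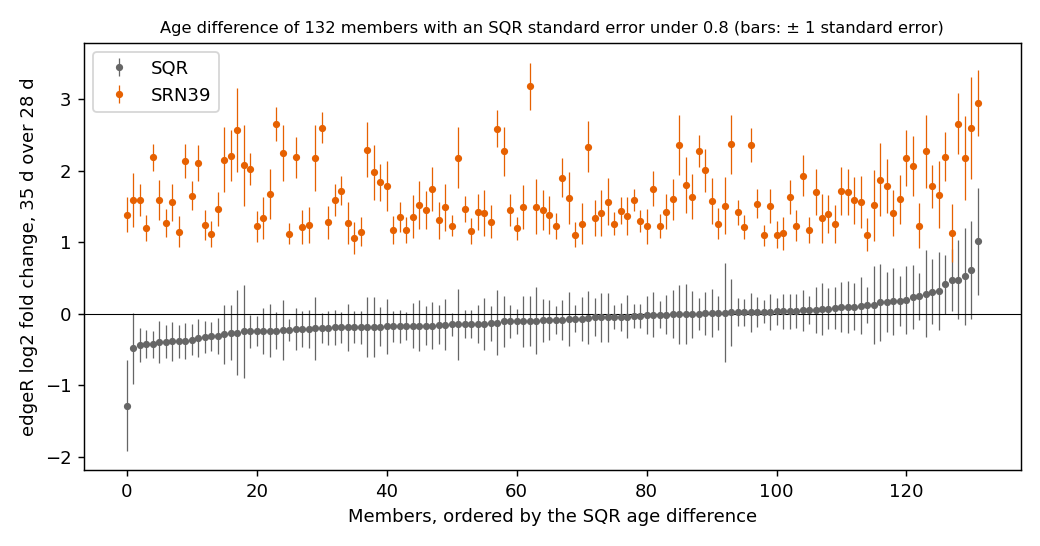
Age difference (35 d over 28 d, log2, edgeR) in SQR and SRN39 for the 132 members whose SQR standard error was under 0.8, ordered by the SQR value; bars are 1 standard error to each side. The SRN39 values run from 1.06 to 3.19 and the SQR values from -1.29 to 1.02, and these differences are those the rule selected on.

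The SQR side of the rule rests on few libraries. In SQR at 35 d the 3 libraries spanned a median of 0.74 in L over the members, 45 members (30%) spanned more than 1, as did 30.4% of all tested genes, and in 11 the span exceeded the member's own rise in SRN39. With 1 SQR library left out, 98 to 136 of the 150 still met the rule, the fewest without replicate 3 at 35 d. Fewer kept a place among the 150 largest rises, down to 66 without replicate 1 at 35 d. Under TMM scaling in place of library totals 129 still met the rule, and 90 were again among the 150 largest rises.

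Members tended to be high or low together within a group. Replicate 4 held the highest value of the SRN39 35-d libraries in 85 members, replicate 3 that of the SRN39 28-d libraries in 99, replicate 2 that of SQR at 28 d in 80, and replicate 1 that of SQR at 35 d in 82. In SRN39 at 28 d, replicate 3 lay a median of 0.24 in L above the group mean over the members, and 0.12 above it over all tested genes. In SRN39 at 35 d, replicate 4 lay 0.28 above over the members and 0.10 over all tested genes. In SQR, replicate 2 at 28 d lay 0.21 above over the members and 0.11 over all tested genes. Replicate 1 at 35 d lay 0.14 and 0.01 above, in the same order. How often these libraries were highest over all tested genes was not counted. The median correlation between pairs of members, after group means were removed, was 0.22 over the 15 libraries, compared with 0.09 between pairs of all tested genes. The 7 SQR libraries alone gave 0.21 and 0.11. These pairs share libraries, depth and scaling, and the part of library composition in them was not tested.

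In 4 pairs the members were neighbours in the gene table, and the number that would arise by chance was not computed. Sobic.007G025700 averaged 13.1 ± 1.71 and 12.9 ± 2.75 CPM in SQR at 28 and 35 d (SD, n = 4 and 3) whereas SRN39 gave 3.4 ± 0.791 and 24.8 ± 2.71 CPM (SD, n = 4 each). It was called lower in SRN39 on average (log2 -0.47, standard error 0.15, edgeR adjusted p = 0.018), a call lost with replicate 3 of SQR at 35 d left out (-0.36, adjusted p = 0.0636). Its neighbour Sobic.007G025800 averaged 20.8 ± 2.93 and 22.5 ± 3.38 CPM in SQR and 27.3 ± 3.79 and 76.7 ± 15.6 CPM in SRN39, with the same numbers of libraries, and was called higher (log2 1.13, standard error 0.12, edgeR adjusted p = 8.84e-07). At 28 d the SRN39 mean thus lay below both SQR means in the former and above them in the latter, where the libraries overlapped. For Sobic.007G025800 the difference was 0.48 at 28 d and 1.78 at 35 d (log2, edgeR), so the p of its average is not independent of the rule. By their identifiers, 17 members (11.3%) lay on chromosome 7, which holds 6.49% of tested genes, and 19 (12.7%) on chromosome 9, which holds 8.24%. Chromosome 1 held 27 (18%), compared with 18.4% of tested genes.

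Among the 413 genes in the annotated list, 14 met the rule, all with identifiers on chromosome 1, and 5 of those are members. The other 9, of which Sobic.001G279601 has no description, rose less in SRN39. Sobic.001G317000, a glutathione S-transferase match, averaged 152.7 ± 39.7 and 130.8 ± 29.5 CPM in SQR at 28 and 35 d (SD, n = 4 and 3) whereas SRN39 gave 76.3 ± 9.61 and 168 ± 41.2 CPM (SD, n = 4 each). Sobic.001G006201, whose rice match is a 1-aminocyclopropane-1-carboxylate oxidase, the last enzyme of ethylene synthesis, averaged 4.79 ± 1.13 and 5.08 ± 0.602 CPM in SQR and 11.3 ± 2.05 and 24.2 ± 3.14 CPM in SRN39, with the same numbers of libraries. Sobic.001G341600, a protein kinase match close to the NSP1 gene, averaged 27 ± 5.6 and 31.9 ± 12.5 CPM in SQR and 7.77 ± 0.944 and 19.3 ± 5.53 CPM in SRN39. Among the auxin-related genes the study named, Sobic.004G156300, an OsSAUR72-like gene of a family of small auxin-induced proteins, met the rule at place 306.

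Pathway lists built from the descriptions held 1 member in all. Only part of the study's gene list was at hand. Every gene in the pathway lists had an identifier on chromosome 1 or at the start of chromosome 2. Short or empty lists therefore say nothing about the other chromosomes, where most members lie. All 413 genes had been listed by the study for differences in these samples, so their directions are not independent evidence. Over all tested genes 15.7% were called higher and 15.2% lower at 35 d in SRN39, and 1.07% and 1.53% in SQR, and lists of this size with few calls cannot be set apart from those shares. The defence list had 11 genes, of which 7 were called higher at 35 d in SRN39 and 0 lower (median log2 difference 1.12, against 0.04 for all tested genes), 0 were called in SQR, and 1, Sobic.001G400900, is a member. The run of Bet v I matches makes up 7 of those 11. The transcription factor list had 19 genes, of which 3 were called higher and 2 lower in SRN39, close to or below the shares over all genes. In it 2 met the rule and 0 are members. Its keywords did not cover the GRAS family, so the NSP1 match Sobic.001G341400, a member, lies outside it. Zinc finger was a keyword, so the list also took in RING finger proteins not described as transcription factors. The auxin list had 4 genes, 1 called higher and 3 lower, and the phosphate starvation list 4 genes, 1 called higher and 0 lower. The SAUR genes named by the study, Sobic.007G191400, Sobic.002G259100 and Sobic.004G156300, lay outside the auxin list. They were called higher at 35 d in SRN39, by 1.14, 0.63 and 0.82 (log2, edgeR). For class III peroxidases the counts were 0 higher and 1 lower of 5, and for cell wall loosening 0 higher and 2 lower of 5. The phenylpropanoid list gave 0 higher and 1 lower of 3, and the transport list the same. No gene was called in SRN39 among 2 suberin and fatty acid genes, 2 aquaporins and 1 gene of the ABA and water deficit list. That last gene, Sobic.001G492000, was called lower at 35 d in SQR (log2 -4.6, standard error 0.81, edgeR adjusted p = 0.0114). The HAI3 matches Sobic.003G354000, a member, and Sobic.002G172000 lay outside the ABA list. Their age differences in SRN39 were 1.45 and 1.91 (log2, edgeR). In SQR, 2 of the 59 listed genes were called higher and 4 lower. The gibberellin, Casparian strip and nitrogen transport lists held 0 genes with a description at hand.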

How the data were processed

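Technical replicates were pooled by the authors, and trimmed reads were aligned with STAR to the BTx623 genome. The deposited values are STAR's raw counts per gene, with no scaling. No source used here gives the STAR version, the annotation or the strand setting. The table has 1 further column, by its name replicate 4 of SQR at 35 d, which no sample description matches and which was not used. Names come from the study's text and from the part of its table of listed genes held here. None of the identifiers was found in the RefSeq gene table (0 matches).

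The tools were edgeR 4.0.16, DESeq2 1.42.0 and limma 3.58.1 under R 4.3.3. A filter of over 1 CPM in 3 or more libraries left 18473 genes. The 4 groups entered a single edgeR quasi-likelihood fit scaled by TMM, and two-sided tests were adjusted over all genes by Benjamini-Hochberg and called at 0.05. Each standard error is the fold change over the root of F. The fit was tested on simulated data. The replicates are biological by the study's methods, and the labels give only their numbers. Their numbers were not used to pair libraries.

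The members and lists were chosen with earlier results of these data known. Individual values were considered for the members with the 10 largest rises, the 5 highest mean CPM, the 5 largest average genotype differences in each direction among called members without overlap (2 were lower), a name or description, or a neighbouring member, and for genes beside each limit of the rule. Sobic.001G535100, other genes of the Bet v I run and described genes outside the 150 were picked after their values were seen. Alternatives were other scalings, tools and filters, a threshold of 0.01, a replicate block, other limits of the rule, and each library left out.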

Additional observations from a re-analysis of the deposited data

Results flagged for a closer look

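In each group of 4 libraries of the named members, the highest and lowest values were compared with the rest by Dixon's test. Of 105 groups 6 held a library far from the others, and chance gives about 1 in 20 groups. Replicate 4 of SRN39 at 35 d was the high library in most of these: Sobic.009G001000 stood at 21.8 CPM there with the others at 10.7 to 12.3, Sobic.006G150100 at 1511 CPM with the others at 848.4 to 959.5, Sobic.001G159200 at 10.1 CPM with the others at 5.3 to 6.04, and Sobic.001G417600 at 17.4 CPM with the others at 10.2 to 11.1. In replicate 3 of SRN39 at 35 d, Sobic.007G074400 stood at 1152 CPM with the others at 741.9 to 791.8. In replicate 3 of SRN39 at 28 d, Sobic.005G202700 stood at 2.35 CPM with the others at 0.529 to 0.653.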

How the results depend on the processing

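Membership was redrawn under each alternative, whereas the genotype calls were counted over members fixed beforehand with all libraries. The spreads of these counts therefore cannot be compared. Because the members were chosen on their SRN39 rise, steady counts of genotype calls follow in part from that choice. The number of genes meeting the rule, 408, became 859 with an SQR limit of 0.5, 163 with a limit of 0.1, 298 with TMM and 287 with RLE scaling, and ran from 287 to 614 with 1 library left out, the most without replicate 1 of SQR at 35 d. For the average genotype difference, the members called higher, 82, ran from 76 to 86 and those called lower, 11, from 9 to 12 with 1 library left out. Other scalings, filters and tools gave 74 to 86 higher and 9 to 11 lower, and an adjusted p under 0.01 gave 71 and 8. Without the members under 1 CPM in every SQR library, an alternative added after seeing the data, the counts were 62 and 11. Over all tested genes 6820 were called, 6049 to 7064 with 1 library left out and 4542 at 0.01. With the replicate number as a block the counts were 75 and 10 for the members and 5990 over all genes. The numbers did not pair the libraries: correlations of same-numbered libraries ran from -0.22 to 0.17, and 5 of 21 were over 0.1. At 0.01 the interaction was called for 41 members, and 17 were called lower at 28 d. The call of Sobic.007G025700 was also lost under limma-voom (adjusted p = 0.0515), and 3 uncalled members were called under 1 alternative each: Sobic.004G351200 without replicate 1 of SQR at 35 d (0.52, adjusted p = 0.00686), Sobic.010G162700 without replicate 2 of SQR at 35 d (1.38, adjusted p = 0.0188) and Sobic.007G135301 under limma-voom (0.89, adjusted p = 0.027). The causes were not tested. Among named members only Sobic.001G319500, which was not called (-0.14, adjusted p = 0.668), changed sign, to 0.0084 under limma-voom. With 1 library left out it ran from -0.34 (without replicate 2 of SQR at 35 d) to 0.21 (without replicate 3 of SQR at 35 d). Members under about 1 CPM rest on few counts, and SQR at 35 d on 3 libraries.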
